A study of Salix matsudana with 3 samples.

Results

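The microRNA pool of unstressed willow is described here from a single small RNA library, made from roots and stems of untreated 30-day-old Salix matsudana plants (Chinese willow) at day 0. It is 1 of the 3 samples of the series. The others are a library from salt-treated plants, which is not used here, and a degradome library from mixed RNA of both conditions, which is used only at the end. How many plants were pooled is not stated in the labels, roots and stems share 1 library, and the deposited tables list microRNAs and their target sites but no marker genes, so the labelled tissue could not be checked. Every listed entry was taken, and each distinct mature sequence was counted once. The table lists 205 entries with 199 distinct sequences, of which 194 had at least 1 read in this library. These sequences held 4004021 estimated reads, the sum over distinct sequences and not the full depth of the library. Levels are given as shares of that sum. With 1 library there is no replicate, so no test was possible, and each share carries an exact Clopper-Pearson 95% interval where one is printed. These intervals describe counting error alone, since PCR copies of a molecule are counted as separate reads.

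Plant microRNAs are cut by a Dicer-like enzyme from a folded precursor as a duplex of a 5p and a 3p strand. Usually one strand is loaded into an ARGONAUTE protein and guides cleavage of matching messenger RNAs, while the partner strand is degraded. In Arabidopsis the length of the strand and its first base are known to influence which ARGONAUTE takes it, with a 5′ U favouring AGO1, and the bases near the 5′ end, from position 2 to position 8, form the seed.

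The 10 most abundant sequences carried 91.4% of the reads, and they are shown because most statements about the pool rest on them. Each is written 5′ to 3′ as deposited, with T for U and the seed in capitals. The 3-letter prefix of a name gives the species of the matched microRNA (ptc is poplar, mes is cassava), L and R give bases added or removed at the 5′ and the 3′ end relative to it, and ss gives substitutions.
ptc-miR166a: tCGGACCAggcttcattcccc
ptc-miR159a_R-1: tTTGGATTgaagggagctct
ptc-miR472b: tTTTCCCAactccacccatccc
mes-miR482_1ss2CT: tTTTCCCTactccacccattcc
ptc-miR319a: tTGGACTGaagggagctccc
ptc-miR1448_L+1R+1: tCTTTCCAacgcctcccatacc
mes-miR396c: tTCCACAGctttcttgaactt
peu-MIR2916-p3_2ss13CT19GC: cGGATGTTgcttttaggactc
ptc-miR398b: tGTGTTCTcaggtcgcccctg
ptc-MIR1448-p5_1ss21CT: tATGGGAGgattggacagtatt
Of these 10, 9 start with U, and the exception is the miR2916 entry, which starts with C. The miR472, miR482 and miR1448 3p sequences are 22 bases long, while miR159 and miR319 are 20 bases long.

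A single sequence, ptc-miR166a, held 2124195 reads, 53.1% of the pool. The miR166 family, which targets the class III HD-ZIP transcription factors of leaf polarity and vascular patterning, held 53.6% over its 5 sequences. Next came ptc-miR159a_R-1 with 614846 reads (15.4%), whose family targets GAMYB-type transcription factors. The poplar-type ptc-miR472b followed with 338121 reads (8.44%) and the miR482 sequence with 151767 (3.79%). Both belong to families that target NB-LRR disease resistance genes. The 5 most abundant sequences, ending with ptc-miR319a at 96127 reads (2.40%), held 83.0% of all reads. The family of miR319 targets TCP transcription factors of leaf growth.

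**Figure D1:**
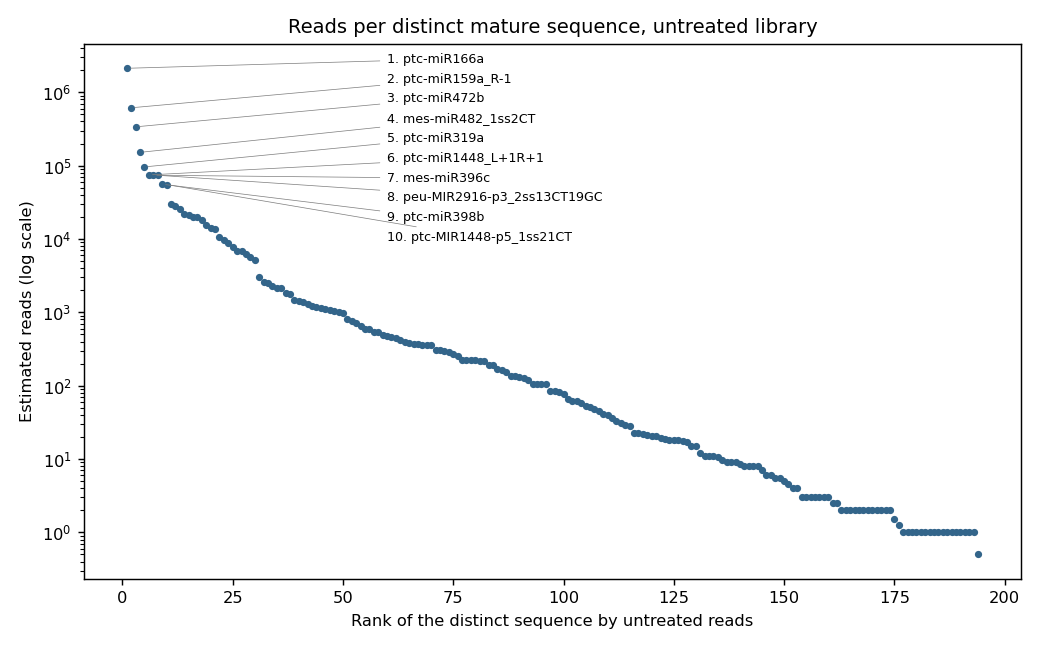
Estimated reads (log scale) of each of the 194 sequences with a read in the untreated library, ordered by rank, 1 point per sequence, with the 10 most abundant named. The points fall from 2124195 reads to under 1 read, and the first 4 lie above 100000.

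The spread of levels was wide. The median sequence had 76 reads, with quartiles of 5.25 and 890. There were 22 sequences with at least 10000 reads, 49 with at least 1000 and 135 with at least 10, which left 64 under 10 reads. It took 1 sequence to reach 50% of the reads, 10 to reach 90% and 34 to reach 99%. No read was listed for 5 sequences (ptc-miR395b_R-3, rgl-MIR5141-p5_2ss6GT23CG, ptc-MIR6423-p5_1ss5GC, ppe-miR482c-5p_R+1_1ss10TG and ahy-miR3508), for which a floor of 3 reads, or 7.49e-05% of the listed reads, was taken.

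Grouped by number, the entries fell into 76 families, of which 74 had a read, and 41 predicted sequences carried no family number. Among families on a fixed list, called conserved here, 27 of 27 had reads, with a median of 9227 reads per family. The lowest value was 134 for miR2111. How widely each is conserved was not examined. All 27 were taken from the 76 listed families, nearly all of which had a read, so this count does not measure completeness. Of the other 44 families outside the possible rRNA or tRNA fragments described below, 42 had a read, with a median of 6.5 reads, and 26 of the 44 were under 10. High levels outside the conserved list were those of miR472 and of miR1448, which held 3.25% over its 2 sequences. Conserved families together held 83.6% of the reads and these other families 13.2%. This split follows family numbers, with miR482 counted as conserved and miR472, of similar sequence, as other. In all, 9 families held at least 1% of the reads and 27 at least 0.1%.

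**Figure D2:**
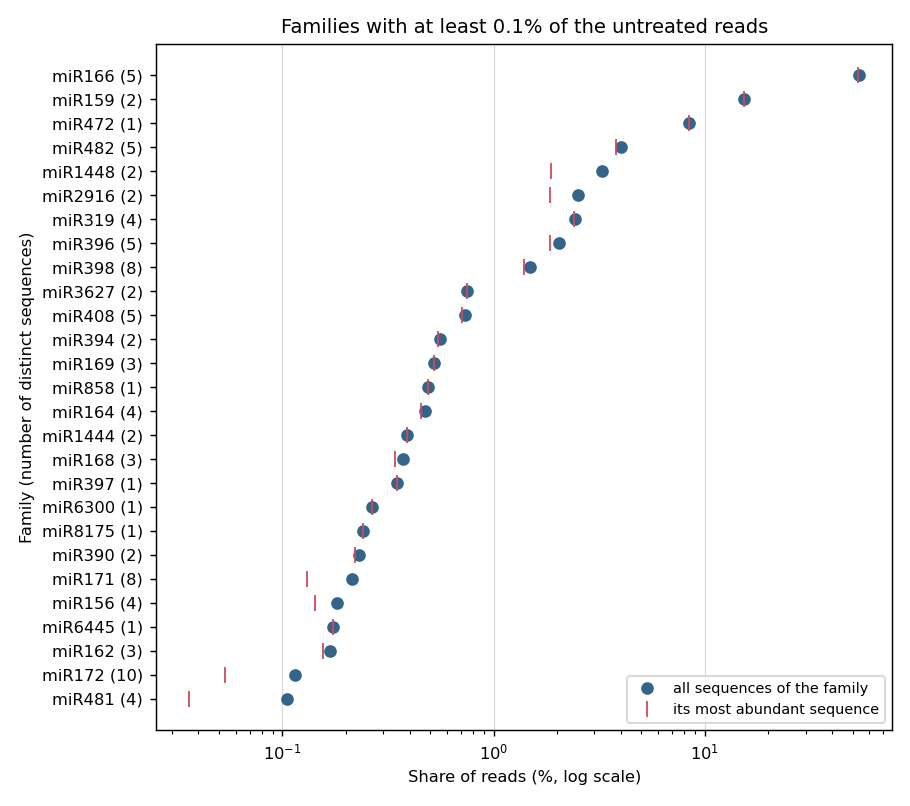
Share of untreated reads (percent, log scale) of each numbered family with at least 0.1% of the reads, with its number of sequences in brackets; dots give the whole family and vertical marks its most abundant sequence. The dots run from miR166 at 53.6% to miR481 at 0.105%, and the mark lies far to the left of the dot for miR172 and miR481.

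The role lists group families by the targets they are best known for in plants. The leaf, organ and vascular development list (miR159, miR164, miR166, miR171, miR319 and miR396) had a read for 28 of 28 sequences and held 74.2% of the reads. Within it, mes-miR396c, whose family targets growth-regulating factors, held 74031 reads (1.85%). nta-miR164a, of the family that targets NAC factors of organ boundaries, held 18074 (0.451%). ptc-miR171j_R+1, of the family that targets scarecrow-like factors, held 5236. Thus miR166 and miR159 supplied most of this list, and its median sequence had 310 reads.

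The NB-LRR list (miR472, miR482 and miR1448) held 15.7% of the reads in only 8 sequences, 7 of them with a read, and its median sequence had 31516 reads, the highest median of the lists. Its leading sequences, miR472b and miR482, have similar letters and different seeds, and both were listed with parts of reads, so reads shared with other entries make their levels uncertain.

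The copper list holds miR397, which targets laccases, miR398, which targets copper/zinc superoxide dismutases, and miR408, which targets laccases and plantacyanins. All 14 of its sequences had reads and together held 2.56%. ptc-miR398b led with 55805 reads (1.39%), then ptc-miR408-3p_L-1R+1 with 28366 (0.708%) and nta-miR397_L+2 with 13927. The phosphate and sulphate list was far lower, at 0.0558% over 10 sequences. There mdm-miR827 had 1012 reads and ppe-miR395c, of the family that targets ATP sulphurylases, had 708. For miR399, whose family targets the ubiquitin-conjugating enzyme PHO2, the total was 266 reads over 3 sequences. In this untreated library the copper families were thus about as frequent as miR319, and the phosphate and sulphate families held a much smaller share.

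The silencing list held 0.549% of the reads. Its leading members were ptc-miR168a-5p, of the family that targets AGO1, with 13588 reads and ptc-miR162a, of the family that targets DCL1, with 6234. The F-box list, made of miR394, held 0.559%, almost all of it in ptc-miR394a-5p with 21834 reads. The NF-Y list, made of miR169, held 0.522%, with 20918.5 reads in ptc-miR169ac_R+2 and a median of 1.5 reads over its 3 sequences. The MYB list held 20020 reads, with 19662 reads in aly-miR858-5p and 358 in ptc-miR828a. Each of the last 3 lists therefore rested on 1 sequence.

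The auxin signalling list held 0.422% over 11 sequences. ptc-miR390a, which triggers the tasiRNAs that act on auxin response factors, had 8856.5 reads. mes-miR393c_R-1, of the family that targets the auxin receptors TIR1 and AFB, had 3068, and ptc-miR160a, of the family that targets auxin response factors, had 1854. The growth phase list held 0.296% over 14 sequences. The family miR156, which holds plants in the juvenile phase through SPL factors, had 7269 reads, and miR172, which acts in the opposite sense through AP2-type factors, had 4568. The miR156 sum rested mostly on a 3p strand, described with the arms below.

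Some entries carry family numbers whose sequences have been matched in other plants to pieces of rRNA or tRNA (miR2916, miR5139, miR5141, miR6300 and miR8175). These 7 sequences, 6 of them with a read, held 3.02% of the reads, led by peu-MIR2916-p3 with 73959 and its partner with 26041, then gma-miR6300_R+5 with 10618 and ath-miR8175 with 9665. Whether they are fragments in willow was not tested. Other leading sequences of families over 0.1% were ptc-miR3627a_R+1_1ss20TC with 29887 reads (0.746%), ptc-miR1444a_R+1 with 15491.5, ptc-miR6445a with 6930 and ptc-MIR481d-p3 with 1450.5. In poplar miR1444 targets polyphenol oxidases.

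Within a family, reads were seldom shared evenly. Among the 31 families with at least 2 sequences and 10 reads, the leading sequence held a median of 93.3% of the family's reads and over 90% in 19 of them. The families miR172 and miR481 were the exceptions in which no sequence reached 50%, at 47.0% and 34.4%. The 3p strands of miR172 are shown because they differ at the ends around a common core.
ptc-miR172g-3p: gGAATCTTgatgatgctgcag
ptc-miR172d: gGAATCTTgatgatgctgcat
aly-miR172a-3p: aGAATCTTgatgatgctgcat
Their levels were 2149, 764.5 and 1104 reads. With another 2 sequences they share a seed, and 70.1% of the reads with that seed started with G and 29.9% with A. Over the table there were 177 distinct seeds. Only 13 of these were shared, by 35 sequences in all, and 2 of them joined 2 different families (miR858 with miR6300, and miR477 with miR5139).

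Sequences of 21 bases were the most frequent class, both by number (107 of 199) and by reads, at 62.8% (95% interval 62.7 to 62.8). The class was dominated by ptc-miR166a, which held 84.5% of its reads. The 20-base class held 18.5% in 17 sequences, 82.8% of it miR159, and the 22-base class 17.0% in 34 sequences, 49.6% of it miR472. The 23-base class held 1.55%, led by the miR3627 sequence, and the 24-base class 0.119%, led by ptc-MIR481d-p3 and ptc-MIR481d-p5 with 1450.5 and 1165.5 reads. At the edges, the 25-base class held 0.0103%, led by the predicted PC-3p-38044_103 with 380 reads and PC-3p-132858_18 with 22. The 18-base class held 0.000670%, with 18.3 reads for hbr-miR396a_R-3 and 4 for gma-miR5380a_L-2R-4_1ss9AT. In the 20-base and 21-base classes most reads were thus of 1 sequence, while the 22-base class was spread over miR472, miR482 and miR1448. With miR166a left out, the shares became 39.5% for 20 bases, 20.7% for 21 and 36.3% for 22.

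By reads, conserved and other families differed in length, but few sequences carried the difference. Sequences of 21 bases held 71.9% of the reads of conserved families, and ptc-miR166a held 2124195 of those 2406441 reads. In the other numbered families 22-base sequences held 89.97% of the reads, mainly miR472 and miR1448. The contrast depends on family numbers. The 22-base mes-miR482_1ss2CT, of similar sequence to miR472b, was counted as conserved, where 22 bases held 5.37% of the reads. By number of sequences, 22 bases made up 19.8% of the conserved and 25.5% of the other group, and 21 bases 61.5% and 43.6%. In several plants 22-base members of the miR482 group are known to trigger secondary small RNAs from their targets, which was not measured here. Of the 41 predicted sequences, 9 were 24 bases long, against 10 of the 158 numbered ones, and none was 22 bases long.

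U was the first base of 106 of the 199 sequences (53.3%) and of 96.3% of the reads. C began 2.58% of the reads, G 0.590% and A 0.481%. The highest C-first sequences were peu-MIR2916-p3 and ptc-miR396e-3p (73959 and 6874 reads). The highest G-first ones were gma-miR6300_R+5 and ptc-MIR166j-p5 (10618 and 2562), and ptc-miR390a was the highest that began with A. The excess of U was thus a matter of abundance more than of number, and with miR166a left out it was still 92.2% of the reads. In the 22-base class U began 99.8% of the reads. In the 24-base class A began 81.9%, most of them from the miR481 family. Among predicted sequences U began 20 of 41 and 23.5% of their reads. That low share rests on the most abundant pair, PC-5p-3490_1413 (2540 reads, first base G) and PC-5p-19405_280 (2161.5 reads, first base C), and without them U began 77.6% of the 2043 reads left.

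**Figure D3:**
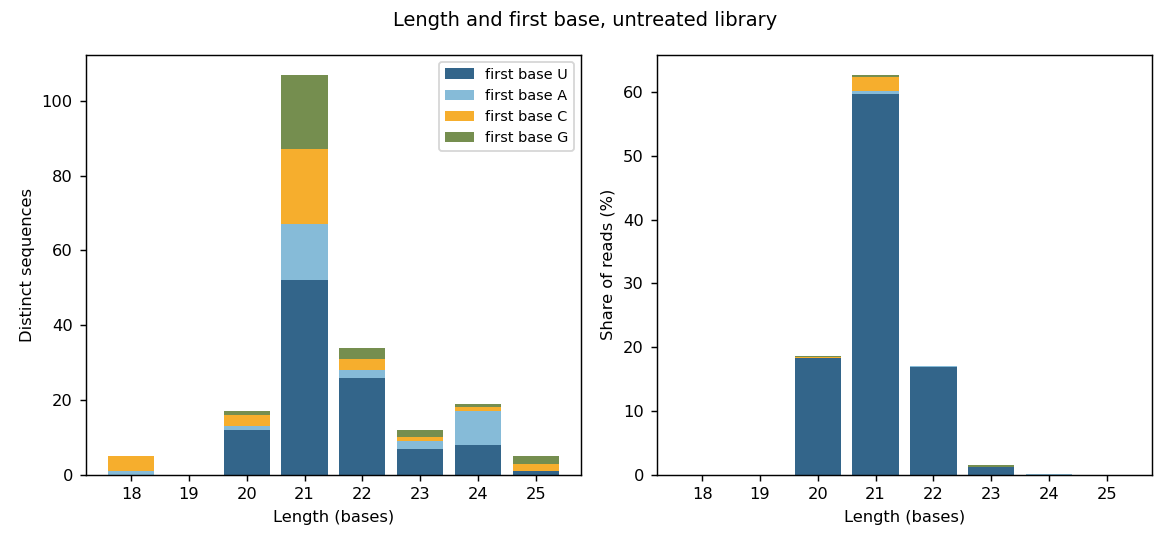
Untreated library by length in bases, split by first base, as the number of distinct sequences and as the percent of reads. By number the 21-base class holds 107 sequences with all 4 first bases, and by reads the bars for 20, 21 and 22 bases are nearly all U.

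Both arms were listed under a common precursor index, with at least 10 reads in total, for 47 precursors. Precursors that overlap on a contig were counted separately. All 46 listed with a contig, with both arms or not, made 37 loci. The 5p arm held more reads in 26 and the 3p arm in 21. Among numbered precursors the order was the other way, 15 against 17, and among predicted ones it was 11 against 4. The 11 include precursors that overlap numbered ones on their contigs. That of PC-5p-83176_32 (12 against 11 reads) overlaps the miR408 precursor, and that of PC-5p-34123_123 (62 against 8) overlaps the miR6469 precursor. In 5 of the 47 the interval of the 5p share included 50%. The higher arm exceeded the lower by a median of 5.69-fold. It exceeded it at least 10-fold in 19 and under 2-fold in 12. This ratio had a median of 11.97-fold in the 32 numbered precursors (a miR395 precursor with 0 reads in 3p counted as the highest ratio) and of 3.35-fold in the 15 predicted ones, of which only 1 reached 10-fold. That one was PC-5p-3490_1413, the most abundant predicted sequence, with 2540 reads against 22 for its partner. The next predicted precursor had 2161.5 reads for PC-5p-19405_280 and 380 for its 3p strand.

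The precursor of miR166 is shown as deposited, with both listed strands in capitals.
miR166 precursor: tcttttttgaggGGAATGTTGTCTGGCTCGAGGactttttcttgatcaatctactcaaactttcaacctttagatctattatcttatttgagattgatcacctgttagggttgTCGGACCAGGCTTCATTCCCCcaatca
Its 3p strand held 2124195 reads and its 5p strand, ptc-MIR166j-p5, 2562, so that the 5p share was 0.120%. In the predicted fold the listed partner of miR398b was offset from it, with 11 bases paired. For miR408 the listed arms paired 3 bases and for miR394 0. Their listed values are thus not ratios within a duplex. They were 55805 (3p) against 9, 28366 (3p) against 40 and 21834 (5p) against 548 reads. The facing 5p strand of miR398b, described below, had 1424 reads. The 3p strand of miR319 held 96127 against 1154. For miR396 the 5p strand led with 74031 reads against 6874. The arms with more reads are those usually named as the guide in these families.

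The precursor of miR1448 behaved differently, with 55277 reads in 5p and 74727 in 3p, a 5p share of 42.5% (42.3 to 42.8).
miR1448 precursor: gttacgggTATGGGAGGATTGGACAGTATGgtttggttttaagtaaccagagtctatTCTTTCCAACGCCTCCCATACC
Both strands of this duplex begin with U, 19 of their bases paired in the predicted fold, and the 3′ overhangs were 3 and 2 bases. The listed 5p strand ends in T where the precursor has G. Both strands were among the 10 most abundant sequences of the library. The contig that carries this precursor at positions 232 to 310 (c6653_f1p0_1800_1_2kb) also carries a miR482 precursor at 43 to 150. In that one the 3p strand, ptc-miR482a.1_L+3R+1, had 7754 reads and the 5p strand 589. Thus the neighbouring hairpins on 1 transcript contig differed in strand bias. The reads of the miR2916 precursor were 26.0% from 5p.

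**Figure D4:**
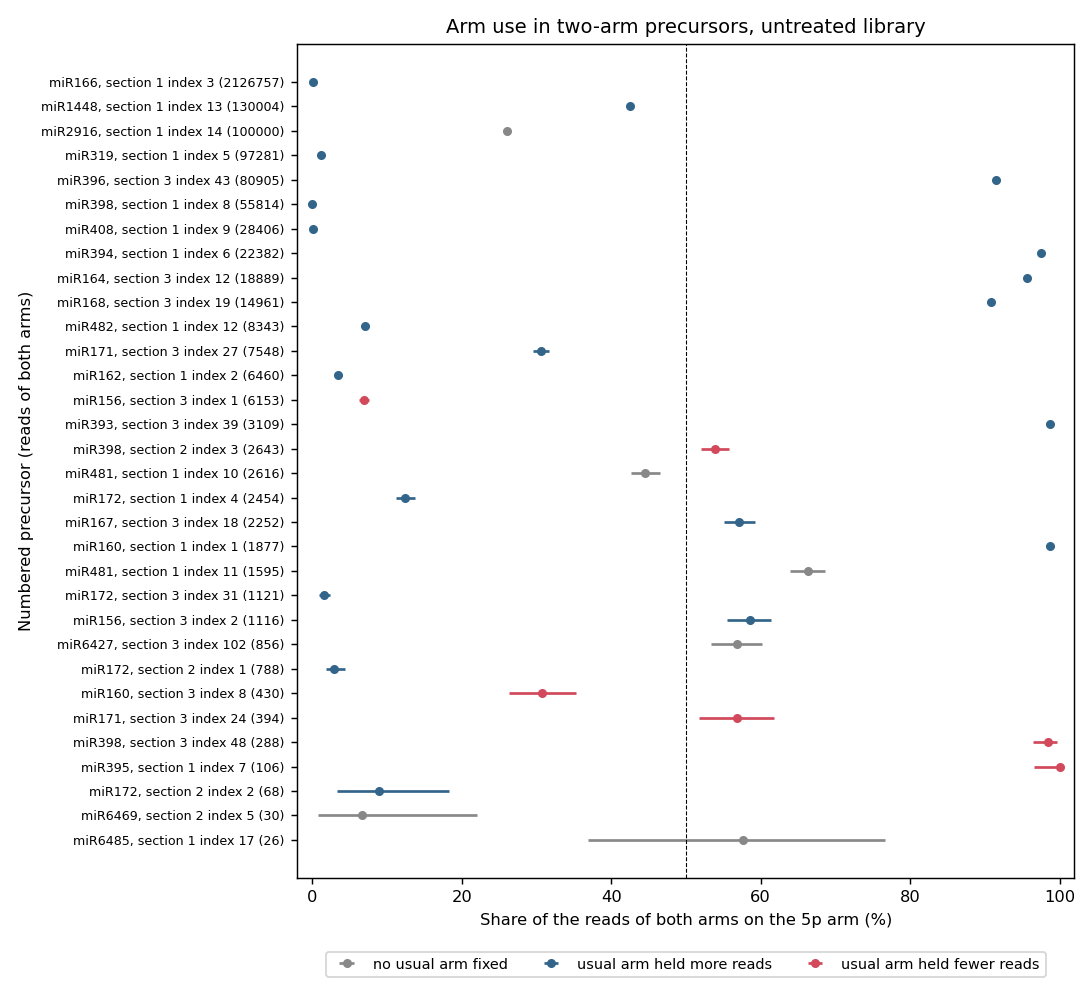
Share of the reads of both arms that came from the 5p arm (percent) in the 32 numbered precursors with both arms listed, with 95% Clopper-Pearson intervals as bars, ordered by the reads in brackets; colours mark whether the usual guide arm held more reads. Most points lie near either end, miR1448 at 42.5% does not, and the 6 precursors in which the usual arm was lower stand in a colour of their own.

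For 26 precursors of families with a usual guide arm, that arm was higher in 20. The count uses the listed arms, some of which do not face each other in the fold, as for miR394 and miR408. It also counts overlapping precursors separately. Of the 20, 3 are miR172 precursors that overlap on 1 contig, where the joined 5p share was 10.1%. In 1 of these the 5p sequence, with 6 reads, is complementary to ptc-miR172g-3p over 20 bases, so its usual arm is uncertain. The 6 exceptions were listed entry by entry. For miR156, the 5p strand ghr-miR156a_R+1 had 426 reads and the 3p strand 5727, so 93.1% was from the 3p arm.
ghr-miR156a_R+1: tGACAGAAgagagtgagcact
mtr-miR156i-3p_3ss11T-13TC22TG: tGCTCACTtcccttctgtcagc
Both of these begin with U. The second miR156 precursor, with 653 and 463 reads, had 58.5% from its 5p arm. For miR160e the 3p strand had 298 reads against 132, whereas in the precursor of miR160a the 5p strand had 1854 against 23. For one miR171 precursor the 5p strand had 224 reads against 170, with a 5p share of 56.9% (51.8 to 61.8). Another, of ptc-miR171j_R+1, had 5236 in 3p against 2312. For miR395 the 5p strand had 106 reads, but the listed partner was an 18-base truncated sequence with 0 reads, and the full-length ppe-miR395c, with 708 reads, was listed elsewhere. In the miR156, miR160e and miR171 exceptions the name of the usual guide strand also carried an L or R part. No hairpin sequence was given for those precursors, so pairing of their arms was not examined.

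The remaining exceptions were both miR398, and they depend on which end variant was listed as the partner. Paired with ptc-miR398b_R+1 (1219 reads), the 5p strand ppe-miR398a-5p had 1424 reads and was the higher arm. Paired with ptc-miR398b_R+2 (4.5 reads), the 5p strand of miR398c had 284. The first of these precursors overlaps on its contig the one that lists ptc-miR398b with 55805 reads. With the sequences of that locus joined, 5p held 1433 reads against 57024 in 3p, a 5p share of 2.45%.
ppe-miR398a-5p_2ss11GC12GA: gGAGCGACctcagatcacatg
miR398 precursor: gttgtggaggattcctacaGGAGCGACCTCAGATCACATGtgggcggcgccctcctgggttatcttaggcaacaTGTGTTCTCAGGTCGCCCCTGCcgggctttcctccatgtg
In the predicted fold this 5p strand and ptc-miR398b left overhangs of 2 bases at both ends, the usual mark of a Dicer cut, and 2.49% of their reads were from 5p. The 3p capitals mark the place of ptc-miR398b_R+1, whose last base is T where the precursor has C.

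A hairpin sequence was given for 34 of the precursors with both arms listed. At least 15 bases were paired between the listed arms in 18 of them, 12 of 19 numbered and 6 of 15 predicted. Overhangs of 2 bases at both ends were found in 6, namely miR160a, miR162a, miR166, miR172b with miR172g, miR482a and 1 predicted precursor. Under 5 bases were paired in 13, which were 8 predicted precursors and those of miR394, miR408, miR481c, miR481d and miR2916. In those the listed arms do not face each other in the fold, so their arm ratios compare sequences that are not duplex partners there. For miR408 the listed 5p sequence lies at precursor positions 34 to 55 and pairs 3 bases with the 3p strand, while hbr-miR408a_R-1, with 270.5 reads, matches positions 12 to 32 with 1 mismatch.

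End variants, sequences whose name carries an L or R part, numbered 62 (31.2%) and held 21.6% of the reads. That share rests on miR159a_R-1, which lacks the last base of the poplar sequence and held 71.1% of it. Without the miR159 family end variants held 6.23% of the reads. The next were ptc-miR1448_L+1R+1 with 8.64% of end-variant reads, ptc-miR3627a_R+1_1ss20TC with 3.46%, ptc-miR408-3p_L-1R+1 with 3.28% and ptc-miR169ac_R+2 with 2.42%. A suffix is relative to a named microRNA of another species, so it records a difference from that species' entry and not from a longer willow product. Where the same reference name was listed with and without an R part, in 3 pairs, the R number equalled the bases added in 3 of 3.

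The 3′ end was moved in 53 of these sequences and the 5′ end, which sets the seed, in 31. Only the 3′ end was moved in 31 sequences with 17.7% of the reads, and those with a moved 5′ end held 3.93%. The order by reads rests on miR159, since without that family the sequences with only the 3′ end moved held 2.30%, below those with a moved 5′ end. A single added 3′ base was listed in 23 sequences with 187349 reads. A single removed one was listed in fewer sequences, 14, but with more reads, 618565, of which miR159a_R-1 held 614846. Substitutions were carried by 61 sequences with 9.06% of the reads, and 59 numbered sequences with neither kind of part held 70.2%.

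True length variants, in which a listed sequence contains another from its first base on, formed 11 pairs among 16 sequences. The shorter form was higher in 9 of them, and the exceptions were the 2 pairs built on the 18-base miR395 sequence with 0 reads. The miR398 series shows the added bases.
ptc-miR398b: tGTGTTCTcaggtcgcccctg
ptc-miR398b_R+1: tGTGTTCTcaggtcgcccctgt
nta-miR398_R+2: tGTGTTCTcaggtcgcccctgtt
These had 55805, 1219 and 478.5 reads, so the form with 1 added T held 2.14% of the reads of that pair. For miR408 the form with an added C had 452 reads beside 28366 (1.57%), and for miR162a the form with an added A had 253 beside 6234 (3.90%). The miR172 forms with an added T reached higher shares, 11.1% (137 beside 1104 reads) in the 3p strand and 7.01% (23 beside 305) in ptc-miR172b-5p. In 5 nested pairs both forms were placed on the same deposited precursor with at most 1 mismatch. The shorter form matched it with 0 mismatches and the longer form with 1, in 5 of 5. That limit leaves out longer forms with more mismatches, such as nta-miR398_R+2, so the pattern is partly set by it. Other copies of these genes were not examined.

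The degradome library, in which the cut ends of messenger RNAs are sequenced, was set beside these levels by entry name. It was made from mixed RNA of untreated and salt-treated plants, so its sites are not a measurement of the untreated state alone. Of the 194 sequences with a read, 93 (47.9%) had at least 1 listed cleavage site. The share was 61.2% (30 of 49) at 1000 reads or more, 48.8% (42 of 86) from 10 to under 1000 and 35.6% (21 of 59) under 10. It was 61.7% for conserved families (58 of 94 with a read) and 36.6% for predicted sequences (15 of 41). None of the 6 possible rRNA or tRNA fragments with a read had a site.

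Among the abundant sequences, ptc-miR166a had 46 listed sites, and the one with most degradome reads was in an ATHB-14 homologue, an HD-ZIP III gene, with 109 reads. For ptc-miR159a_R-1, the next in abundance, there were 5 sites, and the best, in a GAM1 homologue, had only 2 reads. The single site of ptc-miR398b was in a LAC9 homologue, a laccase, with 78 reads, and no superoxide dismutase site was listed for it. For ptc-miR319a there were 15 sites, led by a TCP3 homologue with 29 reads. For mes-miR396c there were 10, led by a GRF1 homologue with 47, and for ptc-miR472b 23, led by an RFL1 homologue with 13. The miR1448 3p strand had 4 sites, led by an RGA2 homologue with 306 reads, whereas its nearly equal 5p strand had 0. The abundant mes-miR482_1ss2CT also had 0. The median number of sites was 2 at 1000 reads or more and 0 in both lower classes of reads. Single sequences departed from this, as gma-miR5380a, of 18 bases and 4 reads, had 45 sites. No association of abundance with number of sites was computed. All 4 of the 18-base sequences with a read had sites, with a median of 24.5, against 2 of 18 sequences of 24 bases.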

How the data were processed

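Per the labels' protocols, the small RNA library was built with Illumina's standard procedure from DNase-treated total RNA. The authors deposited an estimated count of reads per mature sequence in a column headed raw, per the file headers, and some values hold parts of reads. They also deposited a raw count of degradome reads per cleavage site and an alignment score, per the file headers. The aligner, the microRNA caller, the degradome caller and the way reads were divided are not given in the sources used here. For the counts, the untreated column was matched to its sample through the titles, and 1 other sample column, of the salt library, was not used.

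Entries with the same sequence were counted once under the first name listed. The share of reads in a group was its reads over 4004021, with an exact Clopper-Pearson 95% interval (SciPy 1.17.1) on reads rounded to whole numbers. The family is the number in the name. Arms came from the name, from the partner or from the place in the precursor (134 sequences in all), and ratios needed 10 reads over both arms. Listed arms were placed in their own precursors with up to 2 mismatches, and precursors were folded with RNAfold 2.7.2. Placements of nested pairs and of other sequences on a precursor had at most 1 mismatch. Contig positions are those of the deposited table, counted on transcript contigs. The reading of names was tested on examples, and the coverage of the intervals on simulated counts drawn from the observed shares. Placement, folding and the division of reads were not tested in this way. Python 3.11.15, pandas 2.3.3, NumPy 2.4.6 and matplotlib 3.10.9 were used.

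Sequences were named by these rules: the 10 most abundant; the first of each family with at least 0.1% of the reads; 2 for each length and first base; up to 2 per role list; the 6 precursors with most reads and those where the usual partner arm was higher; 5 end variants and 3 predicted entries. Others named, such as secondary precursors, nested variants and degradome examples, were chosen after their values were seen. The sequences and lists were chosen with earlier results of these data known.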

Additional observations from a re-analysis of the deposited data

How the results depend on the processing

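Over 8 results and 51 alternative values, 25 stayed within the interval or within 1.5-fold and 26 moved. With 1 library no replicate could be left out, and no paired analysis was possible because there is only 1 untreated library. Counting every listed entry, the share became 83.1% for the 5 leading sequences, 46.4% for miR166, 54.4% for 21 bases, 96.8% for a first U and 32.0% for end variants. Without the most abundant sequence these shares were 67.9%, 1.23%, 20.7%, 92.2% and 46.0%. Without possible rRNA or tRNA fragments they were 85.6%, 55.3%, 62.5%, 98.7% and 21.7%. Without the 53 sequences with parts of reads, which held 31.6% of the reads, they were 88.5%, 77.6%, 87.0%, 95.6% and 7.42%. Without predicted entries the 5 leading sequences held 83.2%, miR166 53.7% and a first U 96.5%, and 15 of 32 precursors had more reads in 5p in place of 26 of 47, so that the majority turned to 3p. Families with a read numbered 49 in place of 74 when sequences under 10 reads were left out. Requiring 2 degradome reads lowered the share of sequences with a site to 36.6%. The share of a first U stayed at 92.2% or higher in every setting. The other main shares thus depend on miR166a and on sequences with shared reads, whose division is unknown. A listed 0 was given a floor of 3 reads.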

Other observations

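Some listed sequences are complementary to others over a long run. A complementary run of at least 16 bases, outside pairs of the same precursor index, was found in 21 pairs. These include 5p and 3p strands of 1 family listed under different indices. An example is aly-miR172a-3p (1104 reads) with ptc-miR172b-5p (305 reads), over 16 bases. Which pairs are partner strands of a duplex was not tested. The longest runs, of 21 bases, were in a pair of predicted sequences and in miR1444, where ptc-miR1444a_R+1 with 15491.5 reads is complementary over all 21 bases to ptc-miR1444d_2ss6GA20AG with 2 reads.
ptc-miR1444a_R+1: tCCACATTcggtcaatgttcg
ptc-miR1444d_2ss6GA20AG: cGAACATTgaccgaatgtgga
The same was seen over 19 bases for ptc-miR168a-3p (1373 reads) and aau-miR168_L-2R-1_1ss22AT (3 reads), and over 17 bases for mes-miR396c and csi-miR396c_L+1_1ss11TG (5 reads). In these miR1444, miR168 and miR396 pairs the lower member had 5 reads or fewer.

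Predicted entries were not independent of each other. A run of 12 bases, ATCTCACCTAAA, occurred on either strand in 7 of the 41 predicted sequences, which held 355.5 reads, and 13 predicted sequences from 5 contigs were joined by shared runs of at least 12 bases, with 584 reads in all. The predicted pair with a complementary run of 21 bases is shown.
PC-3p-45230_79: aGAAACCAtctcacctaaaaactt
PC-5p-250886_9: tTTTTAGGtgagatggtttct
These had 104.5 and 53.5 reads and were 24 and 21 bases long. Counts of predicted sequences by length, first base or arm therefore include several from 1 sequence family.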
